A study of Mus musculus with 16 samples.

Results

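The tubulins, the kinesin and dynein motors and the proteins that bind microtubules were followed in the brains of newborn mice of 4 genotypes. Members were every spot of the array whose gene symbol in the platform annotation belonged to the tubulins (Tuba, Tubb, Tubg with the gamma tubulin complex proteins, and Tubd), the kinesins (Kif), the kinesin light chains (Klc), the dynein subunits (Dync, Dynl), dynactin (Dctn), the end-binding proteins (Mapre), the stathmins (Stmn) or the structural microtubule-associated proteins Map1a, Map1b, Map2, Map4 and Mapt. The rule found 136 spots of 68 genes, among 10225 genes named on the array and 28704 spots in all. Of the 68 genes, 61 could be tested.

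Each of the 16 arrays compared brain RNA with a common reference pool of adult mouse tissues, brain among them, in 2 colours. Brain cDNA carried Cy3 and the reference Cy5, although the labels of wild-type replicates 3 and 4 give the dye of the reference only. The groups were 4 Cx43 null, 4 Cx43 heterozygous and 4 Cx32 null samples, each from neonatal C57BL mice, and 4 wild-type samples from neonatal C57BL/6j mice. Connexin 43 (gene Gja1) and connexin 32 (gene Gjb1) form gap junction channels, and Cx43 null mice die soon after birth. The labels give the strain of wild type and of the lines in different words. They do not tell whether each sample came from a single animal or from several, and p-values therefore reflect only how these samples spread.

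Microtubules are polymers of alpha and beta tubulin that grow from a template of gamma tubulin and its partner proteins. Kinesins carry most cargo towards the growing end, and cytoplasmic dynein, with dynactin, carries cargo back. In newborn brain these genes serve dividing progenitors, in which mitotic kinesins build and move the spindle, migrating neurons and the outgrowth of axons and dendrites. Stathmins, end-binding proteins and the structural microtubule-associated proteins set how long a microtubule lasts.

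Values are log ratios, read as log2 of brain over reference after each array was centred on its median. Neither the base of the logarithm nor the channel on top is given in the sources used here. Brain over reference is the likely direction, because the median of 6 neuron genes lay above that of 7 genes of the reference tissues on 16 of 16 arrays. The sign of every change rests on that direction, and a natural logarithm would enlarge every change without altering its sign or p. A gene passed at an adjusted p under 0.05 in limma, adjusted over all 13810 transcripts of a comparison, and higher and lower always mean the line against wild type unless another line is named.

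An array held values for 21010 to 24819 spots. With 4 arrays a group the precision is limited, and without intensities the signal of a spot over background cannot be judged. Wild-type replicate 1 stood apart, with a correlation of 0.64 with the median of the other arrays, where the remaining 15 arrays had 0.835 to 0.951. The median SD within a group over the members was 0.25 in Cx43 null, 0.19 in Cx43 heterozygous, 0.21 in Cx32 null and 0.41 in wild-type brains. In 3 of the 48 print subgrids of the array at least 1 array was displaced by whole rows of spots, so that a row of the table held different spots on different arrays; the 1794 spots there, 11 of them members, were left out. Gja1 was 3.40 lower in Cx43 null (adjusted p 0.000302), 2.93 lower in Cx43 heterozygous (adjusted p 9.02e-05) and 1.46 lower in Cx32 null brains (adjusted p 0.00907). Its level did not separate Cx43 null from Cx43 heterozygous brains (a difference of -0.47, adjusted p 0.63), and no tested spot carried Gjb1.

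Promoter windows are shown for Tubgcp4, which was higher in all 3 lines, and for Dync1h1, Kif3b and Kif9, which were lower in all 3 and carry the motor of dynein and 2 kinesins. Each window is the RefSeq sequence (build GRCm38.p6) from 250 bases before to 50 bases after the annotated start, read 5′ to 3′ on the strand of the gene, at chr2:121170918-121171217, chr12:110601145-110601444, chr2:153291166-153291465 and chr9:110476708-110477007, all on the plus strand. Capitals mark matches on either strand to the motifs searched.
Tubgcp4: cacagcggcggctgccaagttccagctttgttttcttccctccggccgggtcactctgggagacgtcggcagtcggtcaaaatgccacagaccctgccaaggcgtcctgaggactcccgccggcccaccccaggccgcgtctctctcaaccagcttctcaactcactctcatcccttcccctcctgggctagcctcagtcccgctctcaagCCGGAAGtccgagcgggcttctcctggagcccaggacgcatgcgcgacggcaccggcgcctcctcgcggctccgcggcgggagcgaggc
Dync1h1: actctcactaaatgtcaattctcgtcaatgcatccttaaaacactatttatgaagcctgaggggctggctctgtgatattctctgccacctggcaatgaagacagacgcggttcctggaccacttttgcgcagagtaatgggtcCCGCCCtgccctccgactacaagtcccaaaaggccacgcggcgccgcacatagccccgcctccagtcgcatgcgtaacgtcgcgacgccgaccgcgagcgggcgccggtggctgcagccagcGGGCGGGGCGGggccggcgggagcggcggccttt
Kif3b: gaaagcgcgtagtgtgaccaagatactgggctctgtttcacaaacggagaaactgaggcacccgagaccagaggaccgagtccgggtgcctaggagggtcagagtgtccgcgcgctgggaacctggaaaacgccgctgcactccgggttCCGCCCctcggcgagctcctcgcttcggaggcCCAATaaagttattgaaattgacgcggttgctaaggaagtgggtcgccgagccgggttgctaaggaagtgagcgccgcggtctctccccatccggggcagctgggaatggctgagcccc
Kif9: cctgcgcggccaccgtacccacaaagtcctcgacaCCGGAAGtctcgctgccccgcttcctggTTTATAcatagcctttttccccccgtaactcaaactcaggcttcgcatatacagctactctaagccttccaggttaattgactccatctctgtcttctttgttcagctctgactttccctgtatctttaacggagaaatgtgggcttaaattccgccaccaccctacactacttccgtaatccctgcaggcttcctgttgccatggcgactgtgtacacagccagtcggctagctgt
The motifs were the TATA box TATAAA, the CCAAT box CCAAT, the GC box GGGCGG, the ETS site CCGGAAG, the CHR element TTTGAA found before many cell cycle genes, the CRE TGACGTCA and the NRF1 site. None of these strings lies within another. Of the 8 genes that passed in the same direction in all 3 lines, 7 had a window in the table and were searched. Kif9 had 2 windows, and only the first listed was searched and is shown. The GC box was in 3 of the 7 windows (Dync1h1, Dynlt3 and Kif3b), beside 35.7% of all 32851 windows. A CCAAT box was in 2 (Kif14 and Kif3b), beside 37.4% of all. The ETS site was in 2 (Tubgcp4 and Kif9), beside 8.86% of all. The TATA box was in 1 (Kif9) and the CHR element in 1 (Kif14, a mitotic kinesin), beside 13.6% and 17.9% of all. The CRE and the NRF1 site were in 0 of the 7, and in 1.79% and 0.971% of all. None of the motifs was in every window of the genes that fell together, and Dync1i1 had no match.

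More members stood above the reference pool on every array than below it. Of the 61, 26 lay above 0 on every array, 5 lay below 0 on every array and 30 lay on both sides. The highest were genes that mark growing neurons. Stmn1, stathmin, which sequesters tubulin dimers, had a median log2 ratio of 3.38 over the 16 arrays (lowest 3.00, highest 4.04). Mapt, the axonal protein tau, had a median of 3.33 (2.49 to 4.28). Tubb2b, a beta tubulin needed for neuronal migration, had a median of 3.19 (1.91 to 4.07). Map2, the dendritic microtubule-associated protein, had 3.08 (2.76 to 3.85), and Tubb3, the neuronal beta tubulin, had 2.90 (2.00 to 3.64). The ranges of these 5 genes overlap, so their order is not resolved. The 5 members below 0 on every array were Dynlrb2, Kif2c, Tubd1, Kif14 and Kif11, of which Kif2c, Kif14 and Kif11 are mitotic kinesins.

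**Figure D1:**
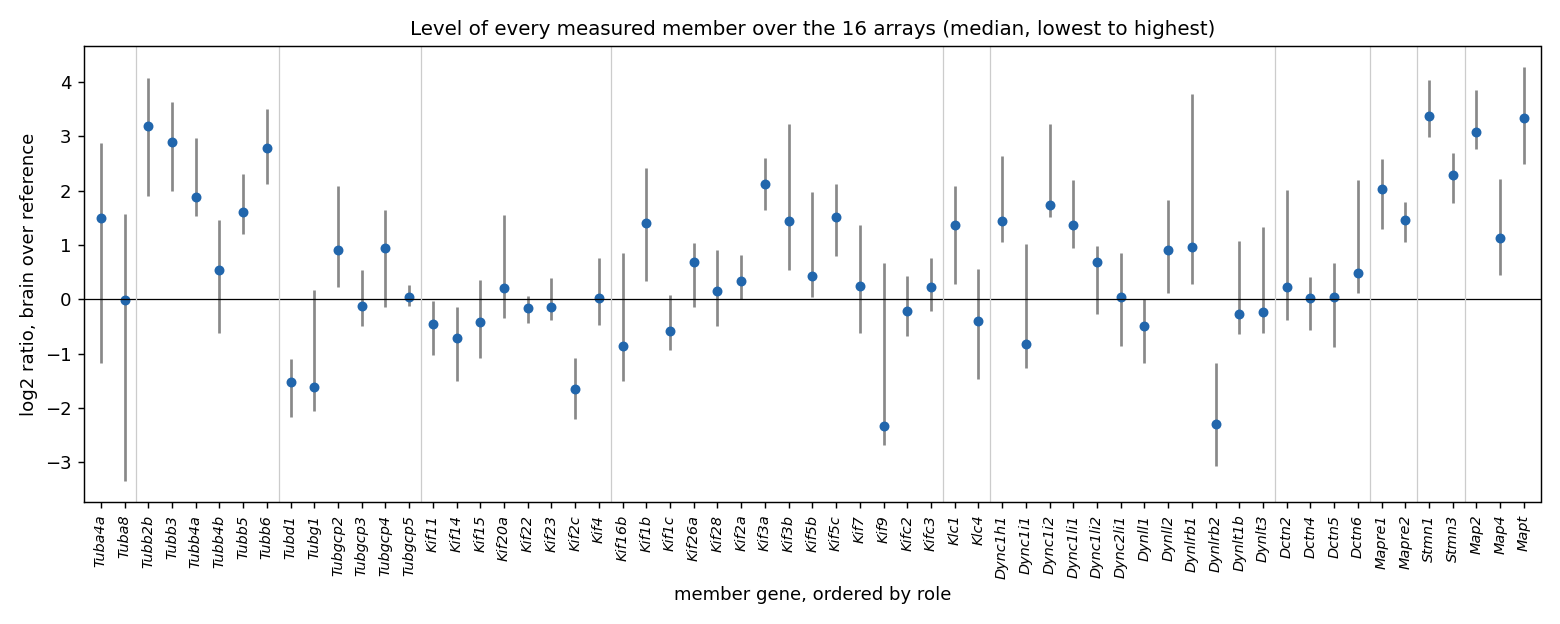
The log2 ratio of brain over reference (vertical axis) is shown for each of the 61 members, ordered by role from alpha tubulins on the left to structural microtubule-associated proteins on the right. Points are medians over the 16 arrays and lines run from the lowest to the highest array; Stmn1 and Mapt have the highest medians, at 3.38 and 3.33, and 6 of the 8 mitotic kinesins have medians below 0.

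In Cx43 null brains 10 of the 61 members passed (16.4%), beside 11% of all transcripts; 3 were higher and 7 lower, where 4.44% of all transcripts were higher and 6.6% lower. In Cx43 heterozygous brains 17 passed (27.9%), beside 31.7% of all; 8 were higher and 9 lower, where 13.8% and 17.9% of all transcripts were. In Cx32 null brains 18 passed (29.5%), beside 28.1% of all; 8 were higher and 10 lower, where 13.5% and 14.6% of all were. These shares are near the background, so the number of members that passed is not a result about microtubule genes. Of the members that passed, 6 had arrays that did not overlap with wild type in Cx43 null brains, where 2.96% of all transcripts were so higher and 3.87% so lower. The number was 16 in Cx43 heterozygous brains, beside 10.7% and 15.1% of all, and 18 in Cx32 null brains, beside 10.5% and 12% of all. The median change of the members was -0.03 in Cx43 null, -0.21 in Cx43 heterozygous and 0.01 in Cx32 null brains, beside 0.01, -0.01 and -0.03 over all transcripts. The Cx43 heterozygous median was 0.06 with quantile scaling and 0.03 with cyclic loess, so its sign is not settled; the Cx43 null median was 0.12 and 0.03 with the same scalings, and its sign is not settled either.

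In Cx43 null brains the count moved with single arrays, and so did the share of all transcripts that passed. Leaving out Cx43 null replicate 1 gave 16, replicate 2 gave 2, replicate 3 gave 1 and replicate 4 gave 4, while leaving out wild-type replicate 1 or 2 gave 3 or 2. Of all transcripts 17.9%, 3.47%, 1.02% and 4.41% passed without Cx43 null replicates 1, 2, 3 and 4. Without wild-type replicate 1 or 2 the shares were 5.95% and 3.54%. The count of members lay between 4 and 6 without Cx43 heterozygous replicate 2 or 4 or any single Cx32 null array. In those fits 7.29% to 8.68% of all transcripts passed. When Cx43 null and wild-type arrays were fitted alone, 0 members and 0 of all transcripts passed. In that fit 14 members and 3024 of all 13810 transcripts had an unadjusted p under 0.05. For the other 2 lines the count stayed between 12 and 22 whichever of the 16 arrays was left out. The share of all transcripts stayed between 20% and 35.8% there. With the arrays of each line and wild type fitted alone, 22.3% of all transcripts passed in Cx43 heterozygous and 17% in Cx32 null brains. In those fits Mapre2 and Kif16b lost their calls in both lines. Tubb2b, Tubb4a and Kif14 lost theirs in Cx43 heterozygous brains, and Dync2li1, Dynll2, Kif5b and Tubb5 in Cx32 null brains.

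**Figure D2:**
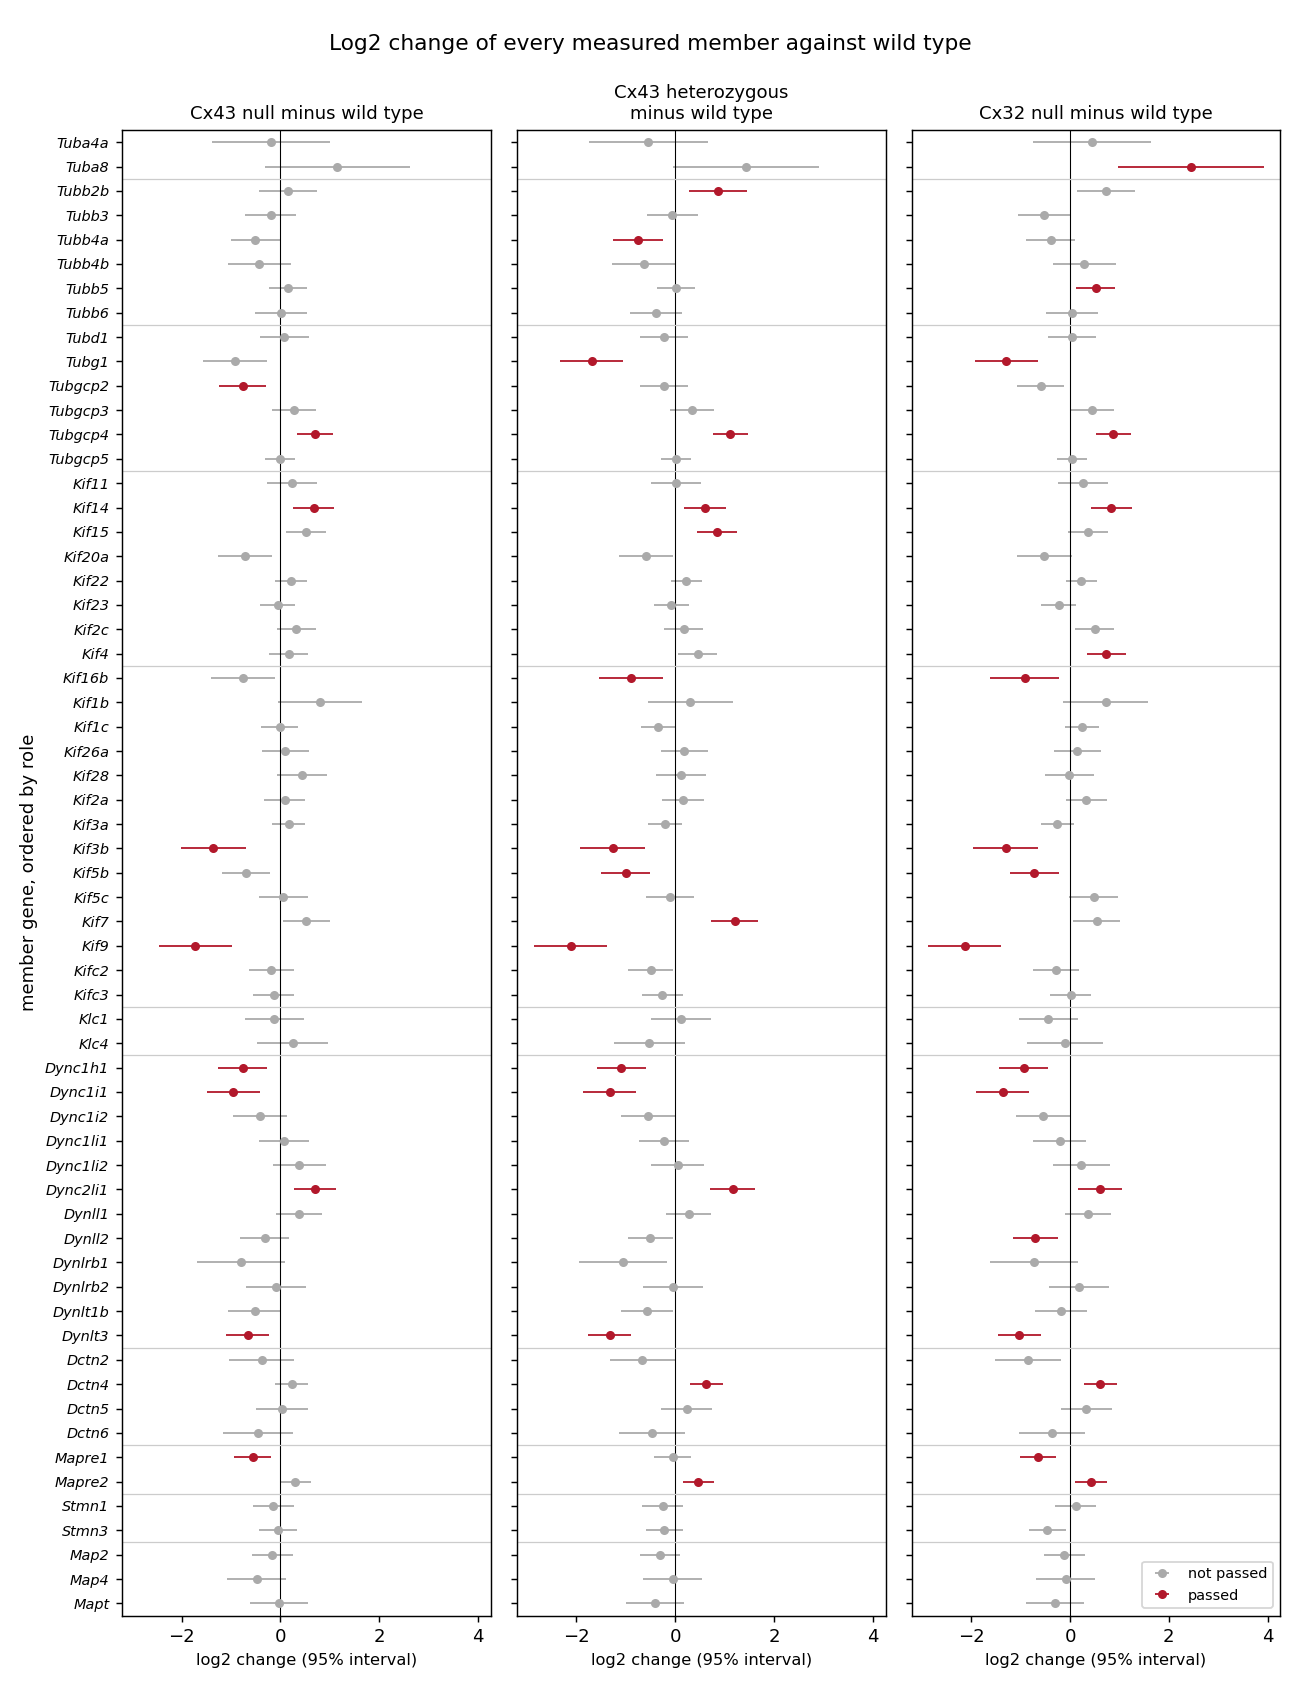
The log2 change against wild type (horizontal axis, with 95% interval) is plotted for each of the 61 members, ordered by role from alpha tubulins at the top, for Cx43 null, Cx43 heterozygous and Cx32 null brains from left to right. Red members passed and grey ones did not; 10, 17 and 18 members are red, and Kif9 lies farthest to the left in every panel.

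The 3 lines were set against the same 4 wild-type arrays, so a member that stands apart in wild type appears in all 3 comparisons. In all 3 lines 3 members were higher (Dync2li1, Kif14 and Tubgcp4), where 3.1% of all transcripts were. Another 5 were lower in all 3 (Dync1h1, Dync1i1, Dynlt3, Kif3b and Kif9), where 5.6% of all transcripts were. Of these 5, 3 are subunits of cytoplasmic dynein 1 and 2 are kinesin motors.

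Dync1h1 encodes the heavy chain of cytoplasmic dynein, which holds the motor. Its log2 ratio was 2.47, 1.46, 1.05 and 1.39 on the Cx43 null arrays, 1.05, 1.33, 1.41 and 1.28 on the Cx43 heterozygous arrays, 1.48, 1.47, 1.33 and 1.37 on the Cx32 null arrays, and 2.12, 2.65, 2.08 and 2.58 on the wild-type arrays. Cx43 null replicate 1 lay within the wild-type range and the other 11 arrays of the lines lay below it. The change was -0.76 ± 0.24 (SE) in Cx43 null (adjusted p 0.0478), -1.09 ± 0.24 in Cx43 heterozygous (adjusted p 0.00327) and -0.94 ± 0.24 in Cx32 null brains (adjusted p 0.00907). The Cx43 null call passed in 2 of the 16 fits that left out an array, and the Cx32 null call was lost with quantile scaling.

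Dync1i1 encodes an intermediate chain that links the motor to dynactin. It stood at -0.39, -0.73, -0.78 and -0.82 in Cx43 null, -1.27, -0.74, -1.05 and -1.14 in Cx43 heterozygous and -0.87, -1.16, -1.07 and -1.25 in Cx32 null brains. Wild-type brains had 1.02, 0.13 and -0.33, with no value on replicate 4. All 12 arrays of the lines lay below the 3 wild-type arrays, and the change was -0.96 ± 0.25 (adjusted p 0.0289), -1.33 ± 0.25 (adjusted p 0.0015) and -1.36 ± 0.25 (adjusted p 0.00191) in Cx43 null, Cx43 heterozygous and Cx32 null brains. The Cx43 null call was lost without wild-type replicate 1 or 2 or any of Cx43 null replicates 2, 3 and 4. A second spot of the gene lies in a displaced subgrid; with its displaced wild-type array set to missing it was lower by less, with changes of -0.49, -0.36 and -0.26 that did not pass, and the mean of both spots then did not pass in any line.

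Dynlt3 is a light chain of the Tctex type. Cx43 null arrays had 0.55, -0.03, -0.37 and 0.25, Cx43 heterozygous arrays -0.48, -0.56, -0.63 and -0.58, Cx32 null arrays -0.23, -0.23, -0.23 and -0.37, and wild-type arrays 1.33, 0.69, 0.53 and 0.48. All arrays of the Cx43 heterozygous and Cx32 null lines lay below wild type, and 1 Cx43 null array lay among the wild-type ones. The change was -1.32 ± 0.21 in Cx43 heterozygous (adjusted p 0.000352) and -1.03 ± 0.21 in Cx32 null brains (adjusted p 0.00268), and both calls held in all 16 fits with an array left out. In Cx43 null brains the change was -0.66 ± 0.21 (adjusted p 0.0485), and it passed in 3 of those 16 fits.

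Of the other dynein subunits, Dynll2, a light chain of the LC8 type, passed in Cx32 null brains alone. It read 0.86, 0.57, 0.50 and 0.13 there, against 1.82, 0.93, 1.09 and 1.04 in wild type, a change of -0.71 ± 0.22 (adjusted p 0.0239) that was lost without wild-type replicate 1 or Cx32 null replicate 4, and with quantile scaling or cyclic loess. Wild-type replicate 1 was the highest of its group. Dynll1, the close relative of Dynll2, had changes of 0.37, 0.27 and 0.37 that did not pass. In all, 12 dynein genes were tested, with 1 higher and 3 lower in Cx43 null, 1 higher and 3 lower in Cx43 heterozygous and 1 higher and 4 lower in Cx32 null brains; their median changes were -0.36, -0.53 and -0.38. Those that passed made up 33.3%, 33.3% and 41.7% of the dynein genes, beside 11%, 31.7% and 28.1% of all transcripts, so the Cx43 heterozygous share is near the background. The Cx43 null share rests on Dync1h1, Dync1i1, Dynlt3 and Dync2li1. Their calls there passed in 2, 11, 3 and 9 of the 16 fits with an array left out. None passed with the Cx43 null and wild-type arrays fitted alone. Of the 12 dynein genes, 7 (Dync1i2, Dync1li1, Dync1li2, Dynll1, Dynlrb1, Dynlrb2 and Dynlt1b) did not pass in any line. The lowest change among these 7 was -1.05, for Dynlrb1 in Cx43 heterozygous brains. Read singly, a Dynlrb1 spot passed there at -1.15 (adjusted p 0.0324), and the other, at -0.95, did not. A Dynlrb2 spot was higher in Cx32 null brains by 1.07 (adjusted p 0.00805), and the other, at -0.23, did not pass.

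The dynein member that was higher was Dync2li1, a light intermediate chain of dynein 2, the motor of return transport in cilia. Its arrays read 0.08, 0.10, 0.39 and -0.03 in Cx43 null, 0.86, 0.42 and 0.52 in Cx43 heterozygous, -0.22, 0.32 and 0.01 in Cx32 null and -0.85, -0.37, -0.81 and -0.22 in wild-type brains. Replicate 2 of Cx43 heterozygous and replicate 2 of Cx32 null had no value. The arrays of each line lay above wild type, with 1 Cx32 null array level with the highest wild-type array to 2 decimals. The change was 0.70 ± 0.20 (adjusted p 0.0369), 1.16 ± 0.21 (adjusted p 0.00129) and 0.60 ± 0.21 (adjusted p 0.0451). Of the 16 fits with an array left out, 9, 16 and 5 kept the call. With spots in displaced subgrids kept, a second spot entered the mean and the changes were -0.37, -0.07 and -0.40, none of which passed. In the subgrid of that spot 50 of 120 pairs of arrays were out of step. Its row may thus hold other spots on some arrays, and it is no check of the rise.

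Among the dynactin genes, 4 were tested. Dctn4, a subunit at the pointed end of the dynactin filament, was higher in Cx43 heterozygous and Cx32 null brains. Its log2 ratio was -0.35, -0.11, -0.15 and 0.01 in Cx43 null, 0.27, 0.03, 0.30 and 0.41 in Cx43 heterozygous, 0.11, 0.32, 0.12 and 0.39 in Cx32 null and -0.49, -0.10, -0.35 and -0.56 in wild-type brains. Both of these lines lay above wild type on every array and the Cx43 null line overlapped it. The changes of 0.63 ± 0.16 (adjusted p 0.00768) and 0.61 ± 0.16 (adjusted p 0.0107) passed in all 16 fits with an array left out. Of its 2 spots, 1 passed in both lines, with 1.08 and 0.66, and the other did not, with -0.10 and 0.28. Dctn2, dynamitin, had changes of -0.38, -0.66 and -0.86 and did not pass.

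**Figure D3:**
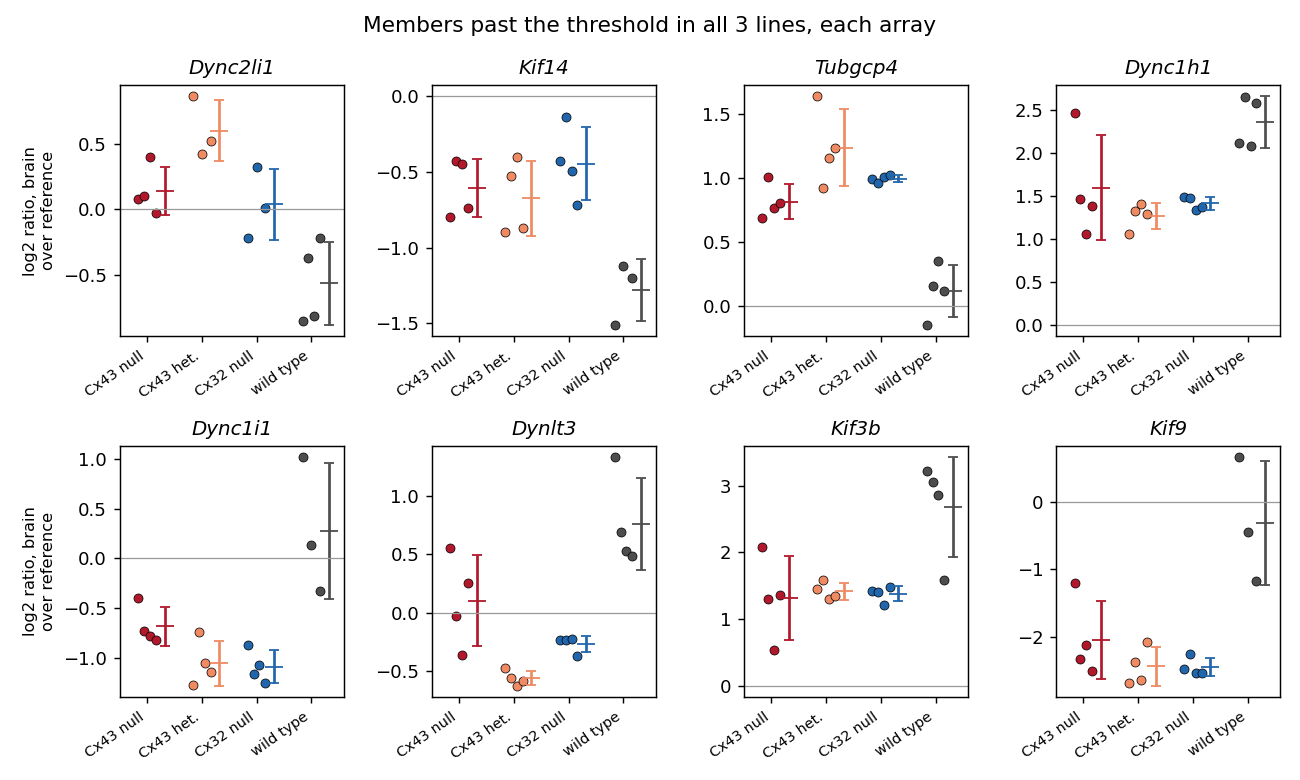
The log2 ratio of brain over reference on each array (points), with mean and SD beside them, is shown for the 8 members that passed in the same direction in all 3 lines, with wild type at the right of each panel. The arrays of the lines lie above wild type for Dync2li1, Kif14 and Tubgcp4 and mostly below it for the other 5; wild-type replicate 4 is missing for Kif14, Dync1i1 and Kif9.

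Kif9, a kinesin known from motile cilia and sperm tails, had the largest fall of the members. It read -1.21, -2.33, -2.12 and -2.50 in Cx43 null, -2.68, -2.36, -2.63 and -2.07 in Cx43 heterozygous and -2.48, -2.25, -2.53 and -2.53 in Cx32 null brains. Wild-type brains had 0.66, -0.44 and -1.17, with no value on replicate 4. The wild-type arrays spread over a wider range than all 12 arrays of the lines, and the line arrays lay below them. Its changes were -1.72 ± 0.35 (adjusted p 0.0115), -2.12 ± 0.35 (adjusted p 0.000558) and -2.13 ± 0.35 (adjusted p 0.001), and they passed in all 16 fits with an array left out. In a fit of the Cx43 null and wild-type arrays alone it did not pass (adjusted p 0.143). Of 4 markers of choroid plexus and meninges, Ptgds and Dcn were also lower in all 3 lines and 0 were higher; the median of the 4 ran from -1.001 to 0.002 on the Cx43 null arrays, -0.26 to -0.24 on the Cx43 heterozygous, -0.17 to 0.26 on the Cx32 null and -0.09 to 2.06 on the wild-type arrays. Its part in the values of Kif9 and of the other cilia genes was not tested, and in whole brain RNA fewer cells of a type and less RNA per cell cannot be told apart.

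Kif3b forms, with Kif3a, the kinesin 2 motor of outward transport in cilia and of axonal transport. It read 2.08, 1.31, 0.53 and 1.36 in Cx43 null, 1.45, 1.59, 1.29 and 1.34 in Cx43 heterozygous, 1.42, 1.41, 1.21 and 1.49 in Cx32 null and 3.23, 3.06, 2.87 and 1.59 in wild-type brains. Wild-type replicates 1 to 3 lay above every array of the lines, and replicate 4 lay within the Cx43 null range and level with the highest Cx43 heterozygous array. The changes were -1.36 ± 0.31 (adjusted p 0.0177), -1.27 ± 0.31 (adjusted p 0.00646) and -1.30 ± 0.31 (adjusted p 0.00686). In Cx43 null brains the call was lost without Cx43 null replicate 3 or wild-type replicate 2. Both of its tested spots passed in every line, with changes from -1.59 to -1.02. A further Kif3b spot, not tested because only 1 Cx43 heterozygous array had a value, ran the other way, at 1.73, 1.54, 1.89 and 2.33 in Cx32 null brains, against -1.25, 0.45, 0.56 and 0.65 in wild type, so the fall of Kif3b depends on the spot. Its partner Kif3a differed little, with changes of 0.16, -0.21 and -0.26 that did not pass.

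Kif5b, the widely expressed heavy chain of conventional kinesin, was lower in 2 lines. It read 0.90, 0.52, 0.04 and 0.29 in Cx43 null, 0.14, 0.04, 0.17 and 0.17 in Cx43 heterozygous, 0.47, 0.45, 0.39 and 0.35 in Cx32 null and 1.97, 0.84, 0.80 and 0.93 in wild-type brains. Every Cx43 heterozygous and Cx32 null array lay below every wild-type array. The change was -1.01 ± 0.23 in Cx43 heterozygous (adjusted p 0.00438) and -0.72 ± 0.23 in Cx32 null brains (adjusted p 0.0293), and the Cx32 null call was lost without wild-type replicate 1, where the change was -0.44, and without any single Cx32 null array. In Cx43 null brains a change of -0.70 did not pass (adjusted p 0.0573). All 4 tested spots of Kif5b were lower in each line, and 2 of them passed in every line while 2 passed in none. A further Kif5b spot had too few values to be tested. Kif5c, the neuronal heavy chain, had changes of 0.06, -0.11 and 0.48 that did not pass.

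Kif7, a kinesin of the primary cilium that acts in Hedgehog signalling, was higher in Cx43 heterozygous brains. It read -0.29, 0.23, 0.32 and 0.46 in Cx43 null, 1.36, 1.15, 0.32 and 0.62 in Cx43 heterozygous, 0.19, 0.24, 0.06 and 0.26 in Cx32 null and -0.61, -0.19, -0.55 and -0.03 in wild-type brains. The Cx43 heterozygous change was 1.21 ± 0.23 (adjusted p 0.00117); the Cx43 null and Cx32 null changes of 0.53 and 0.54 did not pass, although every Cx32 null array lay above wild type. Kif16b, a motor of early endosomes, fell by 0.89 ± 0.31 in Cx43 heterozygous (adjusted p 0.0363) and by 0.92 ± 0.33 in Cx32 null brains (adjusted p 0.0484), calls that passed in 11 and 4 of the 16 fits with an array left out and were both lost without wild-type replicate 1. Kif1b and Kif2a did not pass in any line; Kif1b had changes of 0.80, 0.31 and 0.72 and Kif2a of 0.09, 0.16 and 0.33. Klc1, a kinesin light chain, had mean changes of -0.13, 0.12 and -0.44 that did not pass, but in Cx43 heterozygous brains its 3 spots gave -1.21, -0.57 and 2.13, of which the first and the last passed.

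Of 8 mitotic kinesins tested, 1 was higher in Cx43 null (12.5%), 2 in Cx43 heterozygous (25%) and 2 in Cx32 null brains (25%), and 0 were lower. Of all transcripts 11%, 31.7% and 28.1% passed in these lines, so the counts are near or below the background, and they rest on Kif14, Kif15 and Kif4. An unadjusted p under 0.05 was reached by 3, 4 and 3 of the 8, and by 4324, 6022 and 5733 of all 13810 transcripts. Kif14, which acts at the end of cell division, read -0.80, -0.43, -0.45 and -0.74 in Cx43 null, -0.90, -0.53, -0.40 and -0.87 in Cx43 heterozygous, -0.43, -0.14, -0.49 and -0.72 in Cx32 null and -1.51, -1.12 and -1.20 on the 3 wild-type arrays with a value. All arrays of the lines lay above wild type, and the changes were 0.67 ± 0.20 (adjusted p 0.0413), 0.60 ± 0.20 (adjusted p 0.0294) and 0.83 ± 0.20 (adjusted p 0.0069). The Cx43 null call passed in 6, the Cx43 heterozygous call in 13 and the Cx32 null call in 16 of the 16 fits with an array left out. Without wild-type replicate 1 only the Cx32 null call held, and so it was with quantile scaling and with cyclic loess. A second Kif14 spot, not tested because 7 arrays had no value, read -1.65, -0.93, -0.87 and -0.42 in Cx43 null brains, overlapping the -1.27, -1.65 and -1.05 on 3 wild-type arrays.

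Kif15, a spindle motor, was higher in Cx43 heterozygous brains, at -0.28, 0.17, 0.36 and -0.20 against -0.69, -1.08, -0.96 and -0.60 in wild type, a change of 0.84 ± 0.19 (adjusted p 0.00417). Kif4, which condenses chromosomes and organises the spindle midzone, was higher in Cx32 null brains, at 0.77, 0.56, 0.14 and 0.28 against 0.01, -0.43, -0.30 and -0.48 in wild type, a change of 0.74 ± 0.19 (adjusted p 0.00953). Both passed in all 16 fits with an array left out. Kif11, Kif20a and Kif23, which separate the spindle poles or act at the midzone, did not pass; Kif11 had changes of 0.23, 0.02 and 0.26, Kif20a of -0.71, -0.59 and -0.52, and Kif23 of -0.05, -0.08 and -0.23. The changes of the 8 genes ran from -0.71 to 0.67 in Cx43 null, -0.59 to 0.84 in Cx43 heterozygous and -0.52 to 0.83 in Cx32 null brains.

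General markers of dividing cells were read beside these motors. Of 13 measured, 0 passed in Cx43 null brains. In Cx43 heterozygous brains Plk1 was higher and Cdc20, Aurka and Pcna were lower, and in Cx32 null brains Ccna2, Plk1 and Bub1 were higher. The median of the list ran from -0.80 to -0.06 on the Cx43 null arrays, -0.41 to -0.27 on the Cx43 heterozygous, -0.19 to -0.04 on the Cx32 null and -0.46 to -0.16 on the wild-type arrays. The median of the 8 mitotic kinesins ran from -0.46 to -0.19, -0.25 to -0.04 and -0.29 to -0.16 on the arrays of the same lines, against -0.69 to -0.30 in wild type. The part of the dividing cell markers in the kinesin values was not tested.

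Gamma tubulin and its complex gave a rise in all 3 lines and a fall that its second spot did not share. Tubgcp4, a subunit of the gamma tubulin ring complex, read 0.69, 1.01, 0.77 and 0.81 in Cx43 null, 1.64, 0.92, 1.15 and 1.24 in Cx43 heterozygous, 0.99, 0.97, 1.01 and 1.02 in Cx32 null and -0.14, 0.16, 0.35 and 0.12 in wild-type brains. All 12 arrays of the lines lay above all 4 of wild type. The changes were 0.70 ± 0.17 (adjusted p 0.0218), 1.12 ± 0.17 (adjusted p 0.000308) and 0.88 ± 0.17 (adjusted p 0.00223), and its 3 tested spots were all higher, by 0.06 to 1.55. An untested spot with too few values read 0.76, 0.90 and 0.64 on 3 Cx43 heterozygous arrays, overlapping the 1.20 and 0.66 on 2 wild-type arrays. The call passed in all 16 fits with an array left out in Cx43 heterozygous and Cx32 null brains, and was lost in Cx43 null brains without replicate 2 or 3 of that line.

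Tubg1, gamma tubulin itself, read 0.16, -1.70, -1.62 and -1.67 in Cx43 null, -1.91, -2.05, -2.06 and -1.91 in Cx43 heterozygous, -1.62, -1.49, -1.53 and -1.70 in Cx32 null and -0.01, -0.12, -0.55 and -0.49 in wild-type brains. Apart from Cx43 null replicate 1, which lay above every wild-type array, all arrays of the lines read lower than any of the wild-type arrays. Its change was -1.69 ± 0.30 in Cx43 heterozygous (adjusted p 0.000916) and -1.29 ± 0.30 in Cx32 null brains (adjusted p 0.00618); in Cx43 null brains the change of -0.92 ± 0.30 did not pass (adjusted p 0.0572), and it was -1.38 without replicate 1 of that line (adjusted p 0.000232). A second Tubg1 spot, in a displaced subgrid and read with the displaced wild-type array set to missing, was higher by 0.66 (adjusted p 0.036), 0.57 (adjusted p 0.0282) and 0.96 (adjusted p 0.00221) in the 3 lines. With both spots averaged, the change was -0.56 in Cx43 heterozygous brains and still passed (adjusted p 0.0173), while the fall in Cx32 null brains did not. The 2 spots differ in direction in every line.

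Tubgcp2, a core subunit of the gamma tubulin complex, was lower in Cx43 null brains, at 0.70, 0.68, 0.22 and 0.85 against 2.09, 1.21, 1.27 and 0.95 in wild type, a change of -0.77 ± 0.23 (adjusted p 0.0419) that passed in 5 of 16 fits with an array left out. The median changes of the 6 tested genes of this group were 0.04 in Cx43 null, -0.11 in Cx43 heterozygous and 0.04 in Cx32 null brains, with 1 higher and 1 lower in each line (33.3% passed, beside 11%, 31.7% and 28.1% of all transcripts).

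**Figure D4:**
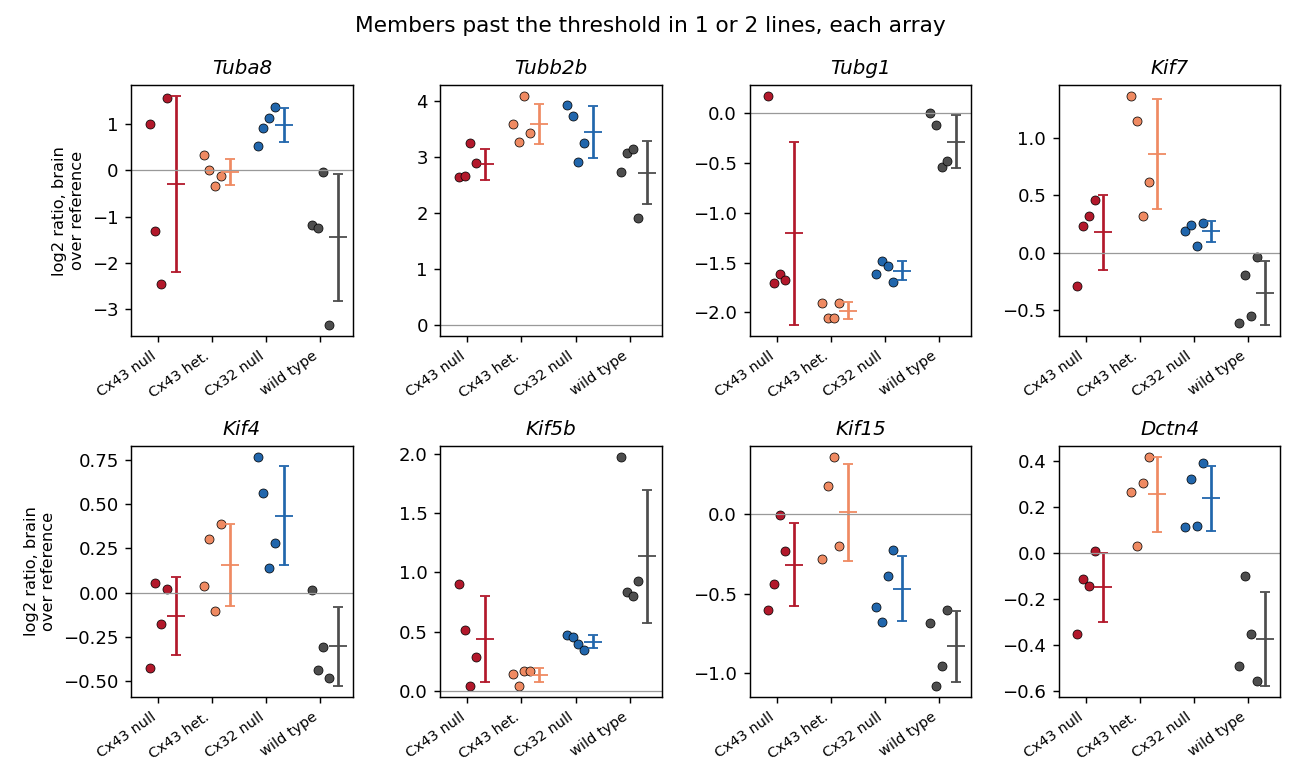
The log2 ratio of brain over reference on each array (points), with mean and SD beside them, is shown for 8 members that passed in 1 or 2 lines, with wild type at the right of each panel. Tuba8 is spread widely in wild type and Cx43 null brains, Tubg1 has a single high Cx43 null array at 0.16, and wild-type replicate 1 of Kif5b stands at 1.97.

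Tuba8, a minor alpha tubulin isotype, had the largest rise among the 61 tested members. It read 1.02, -1.32, -2.46 and 1.57 in Cx43 null, 0.34, 0.02, -0.34 and -0.13 in Cx43 heterozygous, 0.52, 0.92, 1.14 and 1.37 in Cx32 null and -1.19, -1.25, -0.03 and -3.35 in wild-type brains. The Cx32 null arrays all lay above wild type, with a change of 2.44 ± 0.70 (adjusted p 0.0172, 95% interval 0.97 to 3.92). The wild-type arrays spanned more than 3 units, so the size is known only roughly. Changes of 1.15 in Cx43 null and 1.42 in Cx43 heterozygous brains did not pass. Tuba4a, the other alpha tubulin tested, ran from -1.18 to 2.88 on the Cx43 null arrays. It had changes of -0.19, -0.55 and 0.44 that did not pass. Without wild-type replicate 1 a second spot had enough values to enter, and the Cx32 null change was -1.38 (adjusted p 0.0456). Over the 16 fits with an array left out, the Cx43 heterozygous change ran from -2.003 to -0.355 and passed in 2. The Cx43 null change ran from -1.548 to 0.6088 and passed in 0 of those 16 fits.

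Of 6 beta tubulins, 0 passed in Cx43 null, 2 in Cx43 heterozygous and 1 in Cx32 null brains. These are 0%, 33.3% and 16.7%, beside 11%, 31.7% and 28.1% of all transcripts, and thus near or below the background. In Cx43 null brains 1 beta tubulin had an unadjusted p under 0.05, as did 4324 of all 13810 transcripts. Tubb2b read 3.58, 3.26, 4.07 and 3.41 in Cx43 heterozygous brains, against 2.73, 3.07, 3.14 and 1.91 in wild type, with a change of 0.87 ± 0.28 (adjusted p 0.0245) that was lost without wild-type replicate 4 or Cx43 heterozygous replicate 3. Tubb4a, an isotype of neurons and myelinating cells, read 1.81, 1.54, 1.71 and 1.59 there, against 2.76, 2.97, 1.98 and 1.94 in wild type, with a change of -0.75 ± 0.24 (adjusted p 0.0231). The Cx43 heterozygous arrays lay above wild type for Tubb2b and below it for Tubb4a. The Tubb4a call was lost without wild-type replicate 1 or 2 or Cx43 heterozygous replicate 2 or 4, and with each other scaling tried. Tubb5, the isotype of most dividing cells, read 1.68, 2.31, 1.72 and 2.10 in Cx32 null brains, against 1.20, 1.67, 1.63 and 1.24 in wild type, with a change of 0.52 ± 0.18 (adjusted p 0.0447) that passed in 7 of 16 fits with an array left out. Tubb3 had changes of -0.20, -0.06 and -0.53 that did not pass. Beta tubulins resemble each other closely in sequence, and whether a cDNA spot also bound the transcript of a relative was not tested.

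Kif1a and Tuba1b had to be read from a displaced subgrid with wild-type replicate 4 set to missing, an alternative chosen after seeing the data. Kif1a, the carrier of synaptic vesicle precursors, averaged 1.68 in Cx43 null, 2.72 in Cx43 heterozygous and 3.05 in Cx32 null brains (n = 4 each), against 0.42 on 3 wild-type arrays. The changes were 1.26 ± 0.45 (adjusted p 0.0733), 2.29 ± 0.45 (adjusted p 0.0018) and 2.63 ± 0.45 (adjusted p 0.00133), and in each line all arrays lay above those 3. Tuba1b, a main alpha tubulin, averaged 1.45, 2.39 and 2.65 in the same lines, against 2.13 in wild type; no change against wild type passed. Under this reading Tuba1b was lower in Cx43 null than in Cx43 heterozygous brains (a difference of -0.93 ± 0.20, adjusted p 0.0303) and than in Cx32 null brains (a difference of -1.20 ± 0.20, adjusted p 0.027). The remaining 5 untested members (Kif18a, Kif21b, Kif26b, Stmn4 and Tubg2) had too few values.

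Mapre1 and Mapre2, which track growing microtubule ends, moved in opposite directions in Cx32 null brains. Mapre1 read 1.63, 1.60, 1.29 and 2.05 in Cx43 null, 2.27, 2.18, 2.15 and 2.02 in Cx43 heterozygous, 1.47, 1.66, 1.58 and 1.52 in Cx32 null and 2.59, 2.03, 2.06 and 2.14 in wild-type brains. Cx32 null arrays all lay below wild type, and the Cx43 null and Cx43 heterozygous arrays overlapped it. Its change was -0.65 ± 0.18 in Cx32 null (adjusted p 0.0134) and -0.56 ± 0.18 in Cx43 null brains (adjusted p 0.0487). The Cx43 null call passed in 2 of 16 fits with an array left out, and both were lost with quantile scaling or cyclic loess. In Cx32 null brains its 2 tested spots gave -1.29 and -0.01. An untested spot with too few values read 0.64, 1.06, 0.92 and 1.48 in Cx43 null brains, overlapping the 1.48, 1.38, 0.82 and 1.09 of wild type. Mapre2 was higher by 0.46 ± 0.15 in Cx43 heterozygous (adjusted p 0.0264) and 0.42 ± 0.15 in Cx32 null brains (adjusted p 0.0424), with arrays from 1.41 to 1.79 and from 1.45 to 1.69, against 1.05 to 1.32 in wild type; 13 and 6 of the 16 fits with an array left out kept these calls.

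No tested stathmin or structural microtubule-associated protein passed in any line once its spots were averaged. A single Mapt spot was lower in Cx43 heterozygous (-1.27, adjusted p 0.0127) and Cx32 null brains (-1.02, adjusted p 0.0398). A single Stmn3 spot was lower in Cx32 null brains (-0.64, adjusted p 0.0266). The other tested spots of Mapt and Stmn3 did not pass in any line. Map2 had changes of -0.16, -0.31 and -0.11, Mapt of -0.03, -0.41 and -0.31, Map4 of -0.48, -0.05 and -0.08, Stmn1 of -0.15, -0.25 and 0.12 and Stmn3 of -0.05, -0.22 and -0.46. The 95% interval of the Map2 change ran from -0.57 to 0.25 in Cx43 null, -0.72 to 0.10 in Cx43 heterozygous and -0.52 to 0.29 in Cx32 null brains. Of 6 neuron markers measured, 0 passed in Cx43 null brains, Nefm was higher and Syt1 and Syn1 were lower in Cx43 heterozygous brains, and Syt1 and Syn1 were lower in Cx32 null brains. Their median ran from 0.91 to 1.67 in Cx43 null, 0.93 to 1.12 in Cx43 heterozygous, 0.73 to 1.08 in Cx32 null and 1.07 to 1.89 in wild-type brains, and its part in the member values was not tested.

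A total of 24 members had at least 2 tested spots, which test the same gene on the same arrays. All tested spots of a gene had the same sign for 13 of the 24 in Cx43 null, 13 in Cx43 heterozygous and 16 in Cx32 null brains. The median distance between the lowest and the highest spot of a gene was 0.40, 0.71 and 0.58 on the log2 scale. Kif3b, Kif5b, Tubgcp4, Tubgcp2 and Mapre2 had all tested spots on the same side in each line. Kif22, a mitotic kinesin with 7 tested spots, had spots from -0.61 to 0.61 in Cx43 heterozygous brains. A change of a gene with a single spot, such as Kif9, Dync1h1, Dynlt3, Kif7 or Tuba8, has no such check. Untested spots are left out of these counts.

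**Figure D5:**
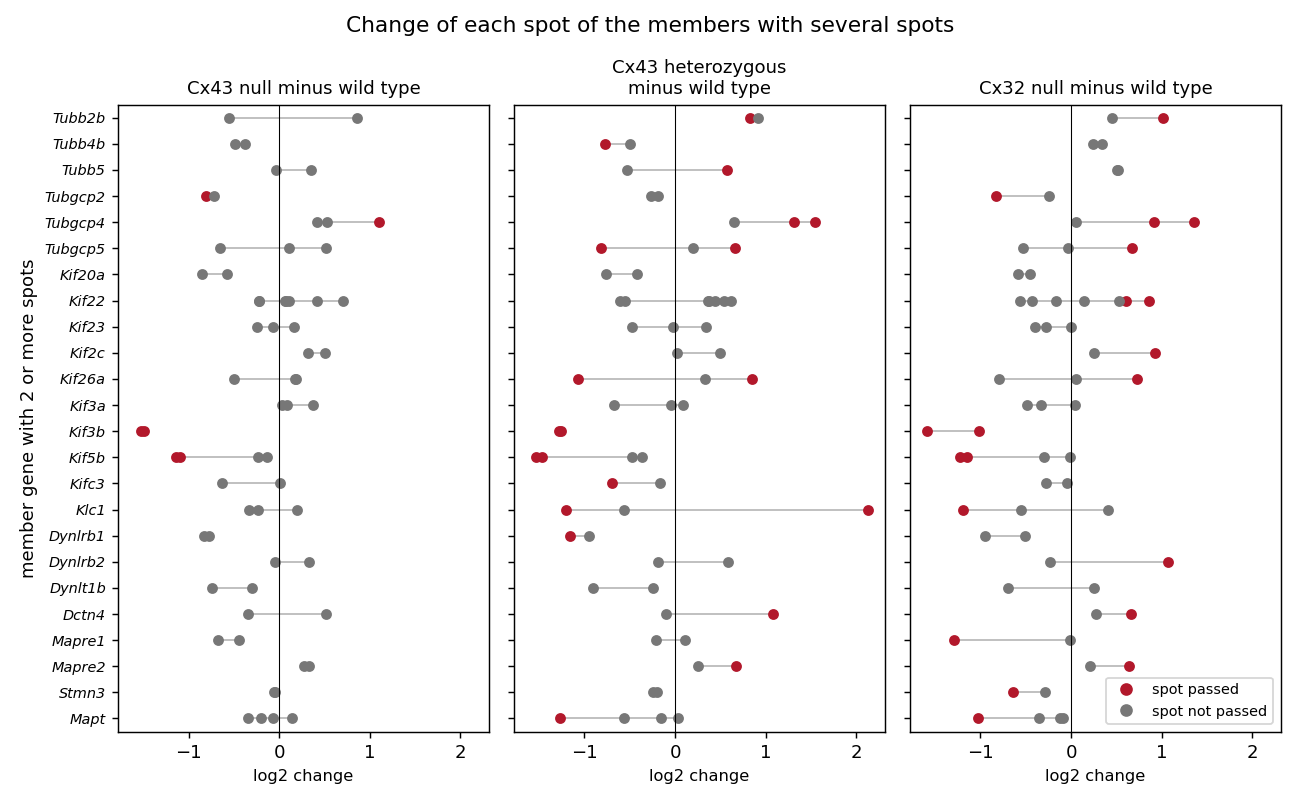
Each point is the log2 change of a single spot against wild type (horizontal axis) for the 24 members with 2 or more tested spots, in Cx43 null, Cx43 heterozygous and Cx32 null brains from left to right; grey lines join the spots of a gene and red spots passed. The spots of Kif3b lie together near or below -1, while those of Klc1 and Kif22 lie on both sides of 0.

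Between the lines, 0 of the 61 members passed in any comparison. In Cx43 null against Cx43 heterozygous brains 1.56% of all transcripts passed (0.804% higher and 0.753% lower, or 0.768% and 0.753% with arrays that did not overlap), and 11 members had an unadjusted p under 0.05. In Cx43 null against Cx32 null brains 0.109% of all passed (0.0869% higher and 0.0217% lower, each with arrays that did not overlap), and 6 members had an unadjusted p under 0.05. In Cx43 heterozygous against Cx32 null brains 1.31% of all passed (0.949% higher and 0.362% lower, or 0.905% and 0.362% with arrays that did not overlap), and 8 members had an unadjusted p under 0.05. Of all 13810 transcripts, 1915, 1278 and 1581 had an unadjusted p under 0.05 in these comparisons, in that order. The differences of the members ran from -0.72 to 0.77, from -1.29 to 0.47 and from -1.02 to 0.67 on the log2 scale. A member that passed in some lines and not in others, such as Kif7, Kif4 or Tuba8, was not shown to differ between lines.

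Genes that work on tubulin and the motors were read from 4 further lists. The lists were chosen with earlier results of these data known, so their shares do not test for an excess. Of 14 tested genes that fold tubulin, 0 were higher, and 4 were lower in Cx43 null, 6 in Cx43 heterozygous and 5 in Cx32 null brains. Of all transcripts 6.6%, 17.9% and 14.6% were lower in these lines and 4.44%, 13.8% and 13.5% higher. The 4 lower in all 3 lines were subunits of the CCT chaperonin, Tcp1, Cct2, Cct3 and Cct7. Cct2 averaged 1.09 in Cx43 null, 0.77 in Cx43 heterozygous and 0.78 in Cx32 null brains, against 1.99 in wild type, and its changes were -0.91 ± 0.20 (adjusted p 0.0164), -1.23 ± 0.20 (adjusted p 0.000542) and -1.22 ± 0.20 (adjusted p 0.00106). Cct6a was lower in Cx43 heterozygous brains (-1.68 ± 0.19, adjusted p 4.69e-05), and Pfdn6, a subunit of the prefoldin that hands tubulin to CCT, was lower in both Cx43 heterozygous and Cx32 null brains. The median change of the list was -0.33, -0.49 and -0.23, beside 0.01, -0.01 and -0.03 over all transcripts. Calls of genes in these 4 lists are given from the main fit only. With single arrays left out, 1.02% to 20.9% of all transcripts passed in Cx43 null brains. With the Cx43 null and wild-type arrays fitted alone, 0 passed.

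Of 10 genes that modify or sever microtubules, 1 was higher and 2 lower in Cx43 null, 3 higher and 4 lower in Cx43 heterozygous and 2 higher and 2 lower in Cx32 null brains. In all 30%, 70% and 40% passed, beside 11%, 31.7% and 28.1% of all transcripts. Because the list was chosen with earlier results known, these shares do not test for an excess. Ttll4, which adds glutamate to tubulin, was higher in all 3 lines, by 0.94, 0.89 and 0.76. Agbl5, which removes it, was lower in all 3, with changes of -1.32, -1.63 and -1.62. Vash2, which cuts the last tyrosine from alpha tubulin, was lower in Cx43 heterozygous brains (-1.71 ± 0.23, adjusted p 0.00014), and its partner Svbp was lower there (-0.72) and in Cx32 null brains (-0.67). Of 23 genes of microtubule ends, lattice and nucleation, 1 was higher and 1 lower in Cx43 null, and 3 were higher and 2 lower in each of the Cx43 heterozygous and Cx32 null lines, in all 8.70%, 21.7% and 21.7% and below those shares of all transcripts. Prc1, which bundles microtubules at the spindle midzone, was higher in Cx43 null by 0.60 and in Cx32 null brains by 0.91, and Tacc1 was lower in all 3 lines.

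Of 13 motor adaptors and regulators, 0 were higher and 1 lower in Cx43 null, 3 higher and 4 lower in Cx43 heterozygous and 1 higher and 3 lower in Cx32 null brains. In all 7.69%, 53.8% and 30.8% passed, beside 11%, 31.7% and 28.1% of all transcripts. Mapk8ip3, an adaptor that joins kinesin 1 to its cargo, averaged 1.13 in Cx43 null, 1.11 in Cx43 heterozygous and 0.78 in Cx32 null brains, against 1.96 in wild type, and was lower in all 3, with changes of -0.84 ± 0.18 (adjusted p 0.0148), -0.86 ± 0.18 (adjusted p 0.0028) and -1.18 ± 0.18 (adjusted p 0.00067). Hap1, which links huntingtin to dynactin and kinesin, was higher in Cx43 heterozygous by 1.31 and in Cx32 null brains by 1.08. Pafah1b1, the dynein regulator LIS1, was lower in Cx43 heterozygous brains (-0.51 ± 0.16, adjusted p 0.0233).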

How the data were processed

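The deposited values are log ratios of 2-colour cDNA arrays, 1 per spot and array, read as log2; what the authors did to make them (image analysis, spot filter, normalization within an array) is not given in the sources used here, and dyes are per the labels. The values run from -8.10 to 7.07, too wide for log10 of scanner signals; a natural logarithm is possible. Of 28704 spots, 18511 had 1 gene symbol, 937 had several and 9256 had no entry; 9 spots with several symbols of which at least 1 would match the rule were not used. Each array was centred on its median. A spot was kept with at least 3 of 4 values in every group, and spots in the 3 displaced print subgrids were left out, which left 18997 spots. A subgrid counted as displaced where shifting an array by up to 12 rows raised its correlation with another array by over 0.15. Spots of a gene were averaged, giving 13810 transcripts, 8435 of them named.

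A single limma model (version 3.58.1, under R 4.3.3) held 1 mean per genotype over the 16 arrays, with moderated 2-sided tests. All 4 groups shared 1 spread per transcript. Over the members the median SD was 0.41 in wild type and 0.19 to 0.25 in the lines. With a shared spread, p against wild type can therefore be too small and p between lines too large. The 6 contrasts were each adjusted by Benjamini-Hochberg over all transcripts. The script was tested on simulated data. Alternatives were other scalings, filters, spot handling, samples in the fit, a replicate block and leaving out each array. Named genes were members that passed with arrays not overlapping, up to 12 in each direction per contrast with wild type, and a list described whether or not it passed; members beyond this rule were named after their values were seen. Members and lists were chosen with earlier results of these data known. For wild-type replicate 3 the title was followed where the label of the channel carries another number. Probe sequences and proteins were not used here.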

Additional observations from a re-analysis of the deposited data

Results flagged for a closer look

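In 7 of 151 groups of 4 arrays a single array lay far from the other 3; chance gives about 1 in 20 such groups. Tubg1 stood at 0.16 on Cx43 null replicate 1, where the other arrays of that line had -1.7 to -1.62. Kif1b stood at 0.34 on the same array, where the others had 2.09 to 2.42. Kif5b stood at 1.97 on wild-type replicate 1, where the others had 0.80 to 0.93. Kif5c stood at 1.31 on Cx32 null replicate 3, where the others had 2.01 to 2.13. Kif11 stood at -0.12 on Cx43 null replicate 3, where the others had -0.5 to -0.44, and at -0.83 on Cx32 null replicate 3, where the others had -0.25 to -0.17. Dynlt3 stood at -0.37 on Cx32 null replicate 4, where the others had -0.23.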

How the results depend on the processing

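With each spot tested on its own, 31 of 100 member spots passed in Cx43 heterozygous and 32 in Cx32 null brains. Of all 18997 spots 33.5% and 30.4% passed in these lines, so the member shares are near the background. Between Cx43 null and Cx43 heterozygous brains 2 member spots passed, beside 1.49% of all spots. Between Cx43 heterozygous and Cx32 null brains 5 passed, beside 1.22% of all spots. More features are counted with single spots than with means. For Cx43 null brains the 10 members called became 6 with cyclic loess, 5 with quantile scaling and 0 with the 8 arrays of both groups alone (14 at an unadjusted p under 0.05). Of all transcripts 11% were called in the main fit, 9.12% with cyclic loess and 7.83% with quantile scaling. With the 8 arrays alone 0 were called, and 3024 of 13810 had an unadjusted p under 0.05. Between Cx43 heterozygous and Cx32 null brains the 0 members called became 3 with the 8 arrays alone, and 1 with a value on all 16 arrays, with cyclic loess or with displaced arrays set to missing. Of all transcripts 1.31% were called there in the main fit, and 1.87%, 0.858%, 1.77% and 1.27% with these alternatives in that order. With displaced arrays set to missing, an alternative chosen after seeing the data, 1 member passed in each of the other 2 comparisons between lines. Of all transcripts 1.58% passed there between Cx43 null and Cx43 heterozygous brains, and 0.113% between Cx43 null and Cx32 null brains. The Cx43 heterozygous median of the members was -0.036 as deposited, 0.034 with cyclic loess and 0.063 with quantile scaling; as deposited, the median of all transcripts there was 0.16, and 62.6% of called transcripts were higher, beside 43.6% with centring and 51.7% with cyclic loess. In Cx32 null brains that share was 57.1% as deposited and 47.9% with centring.

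Leaving out each array in turn gave 1 to 16 members in Cx43 null, 13 to 20 in Cx43 heterozygous and 12 to 22 in Cx32 null brains. Of all transcripts 1.02% to 20.9%, 23.2% to 35.8% and 20% to 32.2% passed in these fits. Between Cx43 null and Cx43 heterozygous brains 0 to 1 members passed (1 without Cx43 null replicate 4 or wild-type replicate 1), beside 0.607% to 2.97% of all transcripts. Between Cx43 heterozygous and Cx32 null brains 0 to 1 passed (1 without Cx43 null replicate 1 or wild-type replicate 1), beside 0.518% to 2.35% of all transcripts. Dync2li1 turned to -0.37 in Cx43 null, -0.068 in Cx43 heterozygous and -0.40 in Cx32 null brains with all spots kept, where a row from a displaced subgrid enters. Klc1 in Cx43 heterozygous brains turned to -0.89 with a value on all 16 arrays, where fewer spots enter. Over the arrays left out, Tuba4a ran from -1.38 to 0.59 in Cx32 null brains. It ran from -2.003 to -0.355 in Cx43 heterozygous and from -1.548 to 0.6088 in Cx43 null brains. A second Tuba4a spot entered without wild-type replicate 1 or 3. The cause of the other changes was not tested.

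With a replicate block, 9 members passed in Cx43 null, 17 in Cx43 heterozygous, 15 in Cx32 null brains and 0 between lines, so no count moved by over 1.5 times. Of all transcripts 11.5%, 31.5% and 27.4% passed in these lines with the block, and 0.0434% to 1.04% between lines. Same-numbered arrays correlated between -0.27 and 0.21 in their deviations, and at most 2 of 4 numbers matched best with their own. No clear pairing by number was seen, but 4 arrays a group are too few to exclude a weak one. No intensities came with the ratios, so signal over background is unknown.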
